A study of Mus musculus with 27 samples.

Results

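The laminin chains and integrin subunits of mouse were followed through naive, formative and primed pluripotency. They were chosen by gene symbol, without use of any measured value, as all entries of the expression table named Lama, Lamb or Lamc with a number, or Itga or Itgb with a number or letter, leaving out integrin-binding proteins. The rule found 39 of 23604 genes, which are 11 laminin chains and 28 integrin entries (18 alpha chains and 10 beta entries, 2 of them the beta-like genes Itgb2l and Itgbl1). The study made bulk RNA-seq libraries of 19 samples, all labelled WT. Naive embryonic stem cells (mESCs, 2 libraries) grew feeder-free on gelatin in N2B27 with 2i/LIF. Epiblast-like cells (EpiLCs, 2 libraries) were made from them with Activin A, bFGF and knockout serum replacement. Epiblast stem cells (EpiSCs, 2 libraries) grew in Activin A, bFGF and XAV939, a tankyrase inhibitor that dampens Wnt signalling, on a layer of inactivated mouse embryonic fibroblasts. Epiblastoids on days 2, 3 and 4 (1 library each) grew from single mESCs embedded in Matrigel in EpiLC medium. By the paper they formed polarized structures with a lumen, and the day 4 sample was of irregular colonies. Formative pluripotent stem cells (fPSCs) were kept in Matrigel with Activin A, bFGF and XAV939. They were sampled at P1 (1 library), at P10, P20 and P30, and as the lines 46C at P24, BVSC at P14, CMT at P11 and ROSAmTmG at P12 (7 libraries in all without P1). By the paper, P1, P10, P20 and P30 are passages of the CMT line too, so the 7 libraries are not 7 separate lines. A further 2 fPSC libraries came from epiblasts of E5.5 and E6.5 embryos.

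Laminins are secreted trimers of 1 alpha, 1 beta and 1 gamma chain. They polymerize into the basement membrane, where nidogens, type IV collagen and perlecan join them. Integrins are receptors of 1 alpha and 1 beta chain that span the membrane and tie this matrix to the actin cytoskeleton. In the mouse embryo the epiblast lies on a laminin-rich basement membrane, and a laminin signal through beta1 integrin is known to polarize it. Matrigel, in which Epiblastoids and fPSCs were grown, is itself a tumour basement membrane rich in laminin with alpha1, beta1 and gamma1 chains. RNA levels describe what the cells transcribe and not the matrix around them.

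Labels were checked against marker genes before the members were read. The naive genes (9, led by Zfp42, Klf2 and Esrrb) summed to between 1118 and 1246 FPKM in mESCs and to at most 34.6 in any other library, whereas Pou5f1 and Sox2 summed to between 296 and 1062 in all 19. The formative genes Otx2, Dnmt3b, Fgf5 and Pou3f1 summed to 835 and 894 in EpiLCs, 563 to 802 in the 7 fPSC libraries and 182 and 198 in EpiSCs. Marker genes of other cells moved with some groups. The fibroblast genes summed to 293 and 398 FPKM in EpiSCs, with 12 of 16 at 1 FPKM or more and Col1a1 at 111 and 153, whereas they summed to at most 33.1 in any other library. Extraembryonic endoderm genes (12) summed to 173 in day 4 Epiblastoids and to between 8.39 and 185 in the fPSC libraries, the highest being 46C with Sox17 at 50.6. These sums rest on few genes. Of the 12, 4 were at 1 FPKM or more in day 4 Epiblastoids and 5 in the mean of the fPSCs. Sox17, Foxa2 and Gata6 were the highest in both. Afp was listed at 0 in all 7 fPSC libraries, and Afp and Ttr in day 4 Epiblastoids. Whether the cells are extraembryonic was not tested. Mesoderm genes (9) summed to 439 in day 4 Epiblastoids. The fPSC libraries fall into 2 sets whose labels describe the preparation differently, P10, P20 and P30 with all other samples in set 1 and the 4 named lines in set 2.

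FPKM are fragments scaled to transcript length and library size, and so can be compared between genes. Of the 39 members, 17 were tested, being at 1 FPKM or above in 2 or more of the mESC, EpiLC, EpiSC and fPSC libraries (13 in all). They include the laminin chains Lama1, Lama5, Lamb1, Lamb2 and Lamc1, 6 alpha integrins (Itga3, Itga5, Itga6, Itga7, Itgav, Itgal) and 5 beta integrins (Itgb1, Itgb3, Itgb4, Itgb5, Itgb7). Of these, Itga7 and Itgb3 passed only through EpiSCs and Itgal only through mESCs, so that they had to differ, and counts are therefore given with and without these 3. Among the 22 members below this level, Lama4 was at 1.23 and 1.00 FPKM in EpiSCs, and Itga8 and Itga9 reached 1.30 and 1.42 in day 4 Epiblastoids. The other 19 stayed under 1 FPKM in every library. They include all 4 collagen-binding alpha chains (Itga1, Itga2, Itga10, Itga11), the leukocyte chains Itgad, Itgam, Itgax and Itgb2, and Itgb6, whose protein pairs with alpha v in epithelia.

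Between mESCs and EpiLCs, 11 of the 17 tested members changed, 3 higher and 8 lower in EpiLCs, where 29.6% of all tested genes did (12.2% higher, 17.4% lower). The call rule was a fold of at least 1.5 and an adjusted p under 0.05 (limma, Benjamini-Hochberg over 12513 genes). Lama1, Lamb2, Lamc1, Itgav, Itgal, Itgb5 and Itgb7 were among those that fell, and Lamb1, Itga3 and Itgb1 rose. Without the 3 members of 1 group the count was 10 of 14. The median log2 difference of the 17 members was -0.57, against -0.06 over all genes. Without mESCs replicate 1 the count was 7, since Lamb1, Itgb5 and Itgav lost their call and Itgal could not be tested. The calls of Itgb1 and Itgb5 were each lost in 3 of the 4 fits that leave out a library and in the fit of these groups alone.

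EpiSCs stood apart from EpiLCs in 14 of 17 members, 13 of them higher and Itgb4 lower, against 35.9% of all tested genes (20.4% higher, 15.5% lower). Without the 3 members of 1 group, 11 of 14 were higher and 1 lower. The median log2 difference of the 17 was 1.47, against -0.03 over all genes. Only Lama5, Itgal and Itgb7 were not called. Against mESCs, EpiSCs differed in 15 of 17 members, 10 higher and 5 lower, with 47.8% of all tested genes called (23.1% higher, 24.7% lower), and in 12 of 14 without the 3. The summed fibroblast genes given above rose with these members, and 12 of the 12 tested fibroblast genes were higher in EpiSCs than in mESCs. Of the 16 listed, 12 were at 1 FPKM or more in the mean of EpiSCs, and 4, 4 and 2 in mESCs, EpiLCs and fPSCs. Many thus passed the filter through EpiSCs, where they are high, so that this count was largely fixed in advance. In a bulk library the RNA of feeder cells and of EpiSCs cannot be told apart, and the part of feeder cells in the members' levels was not tested.

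In fPSCs, 15 of the 17 tested members were not called against EpiLCs. The 2 that were called, also 2 of 14 without the 3 members of 1 group, are Itgb5, higher by 1.82 on the log2 scale, and Itgb4, lower by 1.23, beside 13.8% of all tested genes (5.66% higher, 8.15% lower). The median log2 difference of the 17 was -0.15, against 0.01 over all genes. With fPSCs of set 2 alone, Itga3 was called as well, which made 3. Against EpiSCs, 13 of 17 members were lower in fPSCs and 0 higher, where 32.3% of all tested genes were called (13.3% higher, 19% lower), and 11 of 14 were lower without the 3. Lama5, Itgal, Itgb5 and Itgb7 were not called. Without EpiSCs replicate 2, 9 were lower, as Lamc1 and Itgb4 lost their call and Itga7 and Itgb3 could not be tested. Against mESCs, 3 members were higher and 8 lower in fPSCs, with 40.3% of all tested genes called (17.3% higher, 23% lower), and 3 were higher and 7 lower among the 14. These comparisons share their control libraries, so their counts are not independent.

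**Figure D1:**
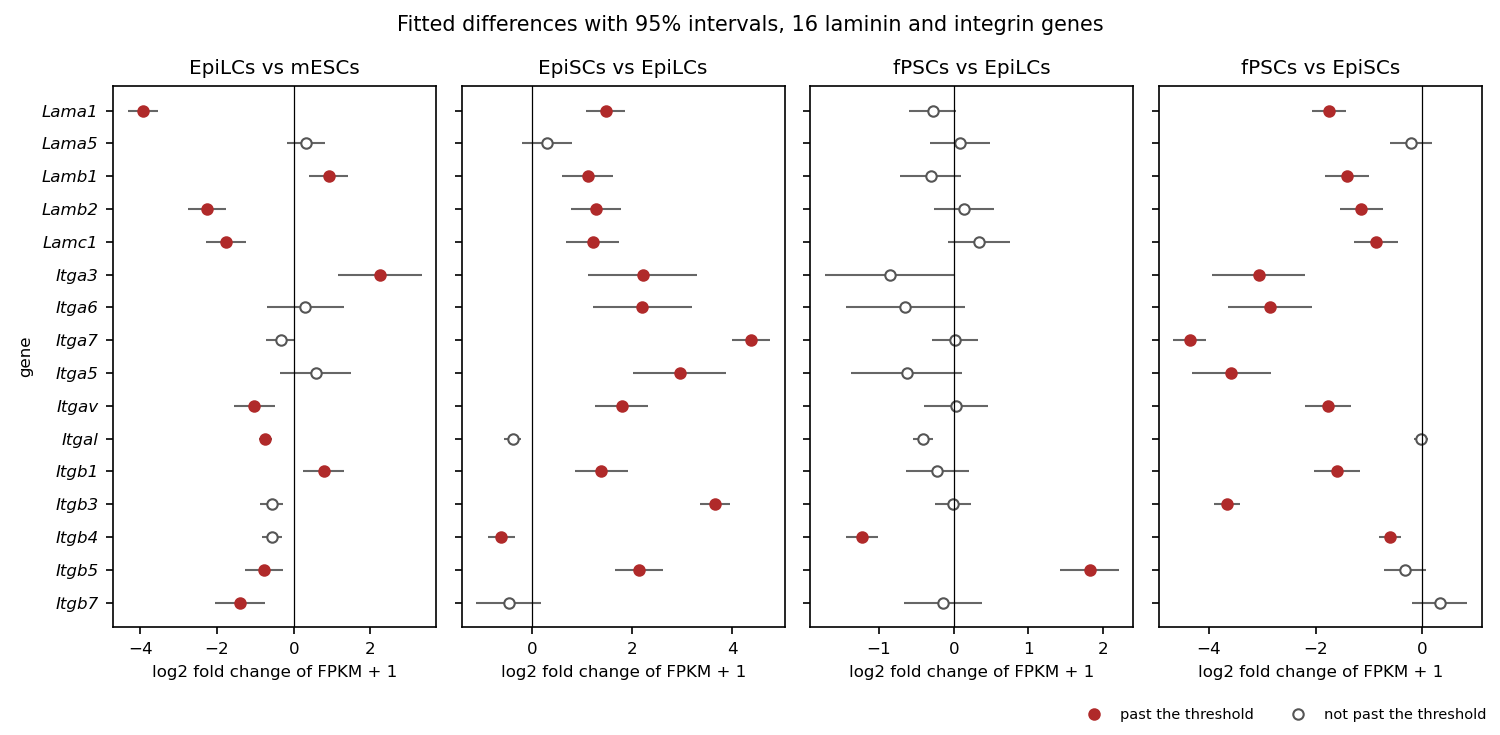
Fitted log2 fold changes of FPKM + 1 (x axis) with 95% intervals (lines) for 16 of the tested members (y axis) in 4 comparisons; filled points passed the threshold. In EpiSCs against EpiLCs 12 of the 16 points lie to the right and are filled, whereas in fPSCs against EpiLCs only Itgb5 (1.82) and Itgb4 (-1.23) are.

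Among the alpha chains, Lama1 encodes the chain of laminin-111, the first laminin of the embryo, and Lama5 the chain of laminin-511. Lama1 stood at 23.4 and 18.3 FPKM in mESCs, 0.58 and 0.27 in EpiLCs, and 2.78 and 3.06 in EpiSCs. In the fPSC libraries it ran from 0.08 through a median of 0.12 to 0.42. Each mESC library was above every other library, and EpiSCs lay between mESCs and the rest. The fall from mESCs to EpiLCs was -3.94 ± 0.18 (SE, 2 against 2 libraries) on the log2(FPKM + 1) scale, with a limma adjusted p of 5.66e-09. This SE, like those of the other comparisons between these groups, draws on the spread within all groups of the fit, fPSCs included. Between fPSCs and EpiLCs the difference was -0.28 (95% interval -0.60 to 0.03, limma adjusted p = 0.232). Lama5 was at 20.0 and 17.7 FPKM in mESCs, 29.7 and 18.9 in EpiLCs, 26.5 and 32.4 in EpiSCs, and 20.7 to 29.4 in fPSCs with a median of 24.8. The groups overlapped except that every fPSC and EpiSC library was above both mESC libraries. The call of Lama5 in EpiSCs against mESCs (0.61 ± 0.23, adjusted p = 0.0408 by limma) was lost when any 1 of the 4 libraries was left out. As a share of the summed alpha-chain FPKM, Lama1 made up 51.7% ± 2.0 (SD, n = 2) in mESCs, 1.64% ± 0.34 in EpiLCs, 8.72% ± 0.51 in EpiSCs and 0.645% ± 0.421 (n = 7) in fPSCs. Lama5 made up 46.9% ± 2.2 in mESCs and 97.2% ± 1.3 in fPSCs. Lama2, Lama3 and Lama4 together with Lama5 and Lama1 complete the sum, and Lama2, the chain of muscle laminin, was under 0.01 FPKM in all libraries.

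The beta chains moved in opposite directions from mESCs to EpiLCs. Lamb1 was at 11.01 and 17.1 FPKM in mESCs, 28.0 and 25.6 in EpiLCs, 55.0 and 62.7 in EpiSCs, and 18.0 to 28.2 in fPSCs (median 21.5). Lamb2, the chain that replaces beta1 in laminin-521, was at 21.6 and 15.2 FPKM in mESCs, 3.48 and 2.54 in EpiLCs, 8.03 and 9.31 in EpiSCs, and 2.65 to 3.89 in fPSCs (median 3.55). Lamb1 was lowest and Lamb2 highest in mESCs, with no overlap with the other 3 groups. Lamb2 fell by 2.26 from mESCs to EpiLCs on the log2 scale (SE 0.23, limma adjusted p = 9.23e-06). Lamb1 rose by 0.91 ± 0.23 (adjusted p = 0.00996, limma), a call lost without mESCs replicate 1 or EpiLCs replicate 1. Lamb1 thus made up 43.3% ± 13.5 of the summed beta-chain FPKM in mESCs, 89.8% ± 1.4 in EpiLCs, 87.1% ± 0.2 in EpiSCs (SD, n = 2 each) and 86.1% ± 2.5 in fPSCs (n = 7). Between fPSCs and mESCs the rise of Lamb1 (0.61, 95% interval 0.20 to 1.02) was lost without mESCs replicate 1, without 46C, or with set 1 alone. Lamb3, a beta chain of skin laminin, reached 0.86 FPKM in day 4 Epiblastoids and at most 0.11 elsewhere.

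Lamc1, the gamma chain shared by most laminins, was at 87.3 and 53.7 FPKM in mESCs, 23.0 and 16.5 in EpiLCs, 41.5 and 51.4 in EpiSCs, and 22.9 to 30.8 in fPSCs with a median of 24.4. All mESC libraries were above all EpiSC libraries, and these above EpiLCs and fPSCs, which overlapped. The fall from mESCs to EpiLCs was -1.76 ± 0.24 (limma adjusted p = 0.000112), whereas EpiSCs against mESCs (-0.56, 95% interval -1.08 to -0.04) did not pass (adjusted p = 0.0715, limma). In EpiLCs, EpiSCs and fPSCs, the most abundant alpha, beta and gamma chains by FPKM were therefore Lama5, Lamb1 and Lamc1, the chains of laminin-511.

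**Figure D2:**
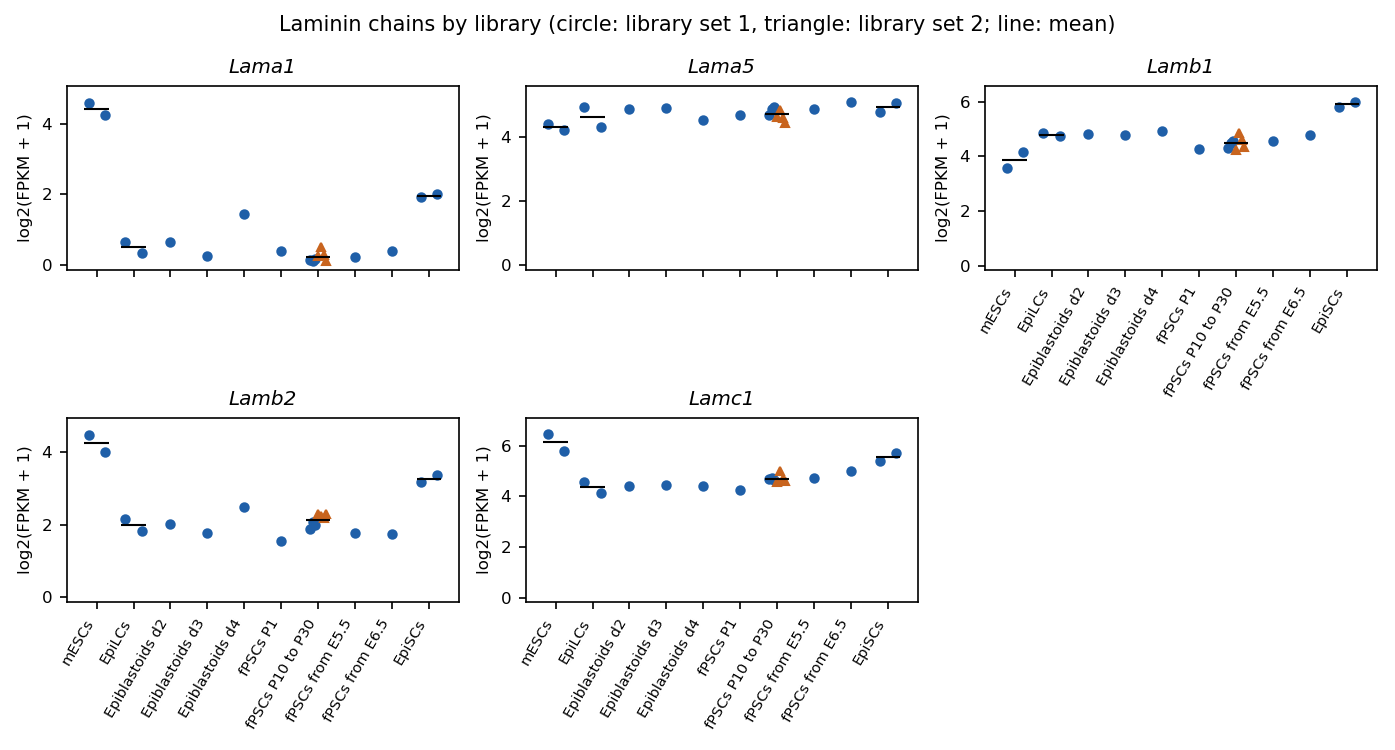
Levels of 5 laminin chains as log2(FPKM + 1) (y axis) in 19 libraries by group (x axis); each point is 1 library (circles set 1, triangles set 2) and lines are means of groups with 2 or more. Lama1, Lamb2 and Lamc1 are highest in the mESC libraries, Lamb1 is highest in EpiSCs, and Lama5 lies within 17.7 to 32.9 FPKM throughout.

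The basement membrane partners of laminin and other integrin ligands were read from lists of 7 genes each. In these lists, genes that passed the filter through EpiSCs alone were not set apart. Counts of genes higher in EpiSCs may therefore be partly fixed in advance. Of 6 tested partners, 3 were lower and 1 higher in EpiLCs than in mESCs. All 6 were higher in EpiSCs than in EpiLCs, and 0 of 6 were called between fPSCs and EpiLCs. Over all tested genes, 29.6%, 35.9% and 13.8% were called in these comparisons. Nid1, which encodes the nidogen that binds the gamma1 chain, was at 78.9 and 42.4 FPKM in mESCs, 1.34 and 0.69 in EpiLCs, 36.2 and 58.4 in EpiSCs and 0.18 to 0.80 in fPSCs. Like Lama1, it was high in mESCs, low in EpiLCs and fPSCs, and again higher in EpiSCs. The EpiSC and mESC values of Nid1 overlapped, whereas Lama1 had a mean of 2.92 FPKM in EpiSCs against 20.9 in mESCs. Col4a1, a chain of type IV collagen, was at 1.20 and 0.37 in mESCs and 83.6 and 143 in EpiSCs, so it did not share the high mESC level. Of the 5 tested other ligands, all 5 were lower in fPSCs than in EpiSCs, where 19% of all tested genes were. Against EpiLCs, 2 (Spp1, by 2.92, and Fn1, by 1.27 on the log2 scale) were lower in fPSCs, beside 8.15% of all tested genes. Fn1, the fibronectin bound by alpha5 beta1 integrin, stood at 172 and 108 FPKM in mESCs, 20.8 and 13.7 in EpiLCs, 207 and 319 in EpiSCs, and 4.73 to 8.15 in fPSCs. Fibroblasts also make Fn1 and type IV collagen. These genes and Nid1 were higher in EpiSCs than in EpiLCs, as were the summed fibroblast genes. The part of feeder cells in the levels of any of them was not tested.

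Laminin is bound by integrins with the alpha3, alpha6 and alpha7 chains. Itga3 was at 8.41 and 4.50 FPKM in mESCs, 36.8 and 29.7 in EpiLCs, 125 and 195 in EpiSCs, and 8.69 to 30.9 in fPSCs (median 17.9). EpiSCs were above EpiLCs and both were above mESCs without overlap, while the fPSC range reached into that of EpiLCs. The rise from mESCs to EpiLCs was 2.24 ± 0.50 (SE) and from EpiLCs to EpiSCs 2.21 ± 0.50 on the log2 scale (limma adjusted p = 0.00439 and 0.00438); the first was lost without mESCs replicate 2 and the second without EpiSCs replicate 2. Itga6, which pairs with beta1 or beta4, was at 4.98 and 2.95 FPKM in mESCs, 5.89 and 4.23 in EpiLCs, 21.1 and 33.5 in EpiSCs and 1.56 to 6.64 in fPSCs (median 2.68). Only EpiSCs stood clear of the other 3 groups, by 2.202 ± 0.46 against EpiLCs (adjusted p = 0.00251, limma). Itga7, known from muscle, was at 16.0 and 26.5 FPKM in EpiSCs, 0.37 and 0.26 in mESCs, 0.04 and 0.03 in EpiLCs and at most 0.09 in fPSCs, and as noted it was tested only because of EpiSCs.

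The alpha5, alpha8, alpha v and alphaIIb chains bind ligands such as fibronectin and vitronectin through their Arg-Gly-Asp motif. Itga5 was at 10.5 and 3.95 FPKM in mESCs, 12.5 and 8.29 in EpiLCs, 68.1 and 108 in EpiSCs, and 4.35 to 9.90 in fPSCs (median 6.25). EpiSCs were far above the other 3 groups, which overlapped, and the difference from EpiLCs was 2.95 ± 0.43 (limma adjusted p = 0.000168). Itgav was at 8.02 and 5.67 FPKM in mESCs, 3.43 and 2.24 in EpiLCs, 10.7 and 13.8 in EpiSCs, and 2.36 to 3.64 in fPSCs (median 2.75). It fell by 1.03 from mESCs to EpiLCs (SE 0.25, adjusted p = 0.00638, limma), a call lost without mESCs replicate 1 or EpiLCs replicate 2. EpiLCs and fPSCs overlapped in Itgav and differed by 0.03 (95% interval -0.40 to 0.46). Itga2b, the platelet chain, was at most 0.50 FPKM. Of the leukocyte chains Itgal, the alpha chain of LFA-1, was at 1.20 and 1.29 FPKM in mESCs, 0.34 and 0.34 in EpiLCs, and at most 0.02 in EpiSCs and fPSCs. The blood genes summed to 36.6 and 70.3 FPKM in mESCs, with Laptm5 highest and Lyz2, Hbb-bh1 and Tyrobp listed at 0. In EpiSCs, where Itgal was at most 0.02 FPKM, they summed to 44.6 and 49.9, again with Laptm5 highest. The part of blood genes in the level of Itgal was not tested.

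Itgb1, the beta chain that most alpha chains need, was the most abundant integrin gene in 17 of the 19 libraries by FPKM. The exceptions are EpiSCs replicate 2, with Itga3, and the fPSCs from E5.5, with Itgb5. It was at 41.9 and 27.2 FPKM in mESCs, 55.0 and 62.5 in EpiLCs, 169 and 141 in EpiSCs, and 39.8 to 64.3 in fPSCs (median 51.0). EpiSCs were above the rest by 1.38 ± 0.24 against EpiLCs (limma adjusted p = 0.000827), and fPSCs and EpiLCs overlapped. Itgb5, which pairs with alpha v to bind vitronectin, was the tested member that separated fPSCs from EpiLCs upward. It was at 13.3 and 11.6 FPKM in mESCs, 7.74 and 5.99 in EpiLCs, 36.5 and 30.6 in EpiSCs, and 19.5 to 32.9 in fPSCs (median 26.7). All 7 fPSC libraries were above all mESC and EpiLC libraries, and fPSCs and EpiSCs overlapped. The difference between fPSCs and EpiLCs was 1.82 ± 0.18 (limma adjusted p = 1.35e-05, 7 against 2 libraries). It stayed past the threshold under each alternative and without each library in turn. The 7 include several passages of the CMT line, which are not independent of each other. The endoderm genes moved in the same direction, from sums of 1.55 and 3.25 FPKM in EpiLCs and 1.76 at P1 to 8.39 to 185 in fPSCs, and so did the 5 primed genes (T, Cer1, Sox1, Snai1 and Foxa2, which is in both lists), from 1.51 and 2.88 to between 18.6 and 316. The part of either list in the level of Itgb5 was not tested. Itgav, the partner of Itgb5, did not move with it, at 0.03 in the same comparison. Itgb5 made up 10.1% ± 2.4 of summed integrin beta FPKM in EpiLCs and 34.2% ± 6.0 in fPSCs, and Itgb1 85.4% ± 2.6 and 63.9% ± 5.6. Itgb4, the beta chain of hemidesmosomes that pairs with alpha6, was at 3.35 and 2.58 FPKM in mESCs, 1.70 and 1.67 in EpiLCs, 0.68 and 0.81 in EpiSCs and 0.08 to 0.19 in fPSCs, with no overlap between any of these 4 groups. Itgb3, another partner of alpha v, is known as a marker of platelets. It was at 10.2 and 14.3 FPKM in EpiSCs, 0.55 and 0.53 in mESCs, and at most 0.14 in EpiLCs and fPSCs. Itgb7, a leukocyte beta chain, was at 6.98 and 3.05 FPKM in mESCs and at most 1.80 in the other 3 groups.

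**Figure D3:**
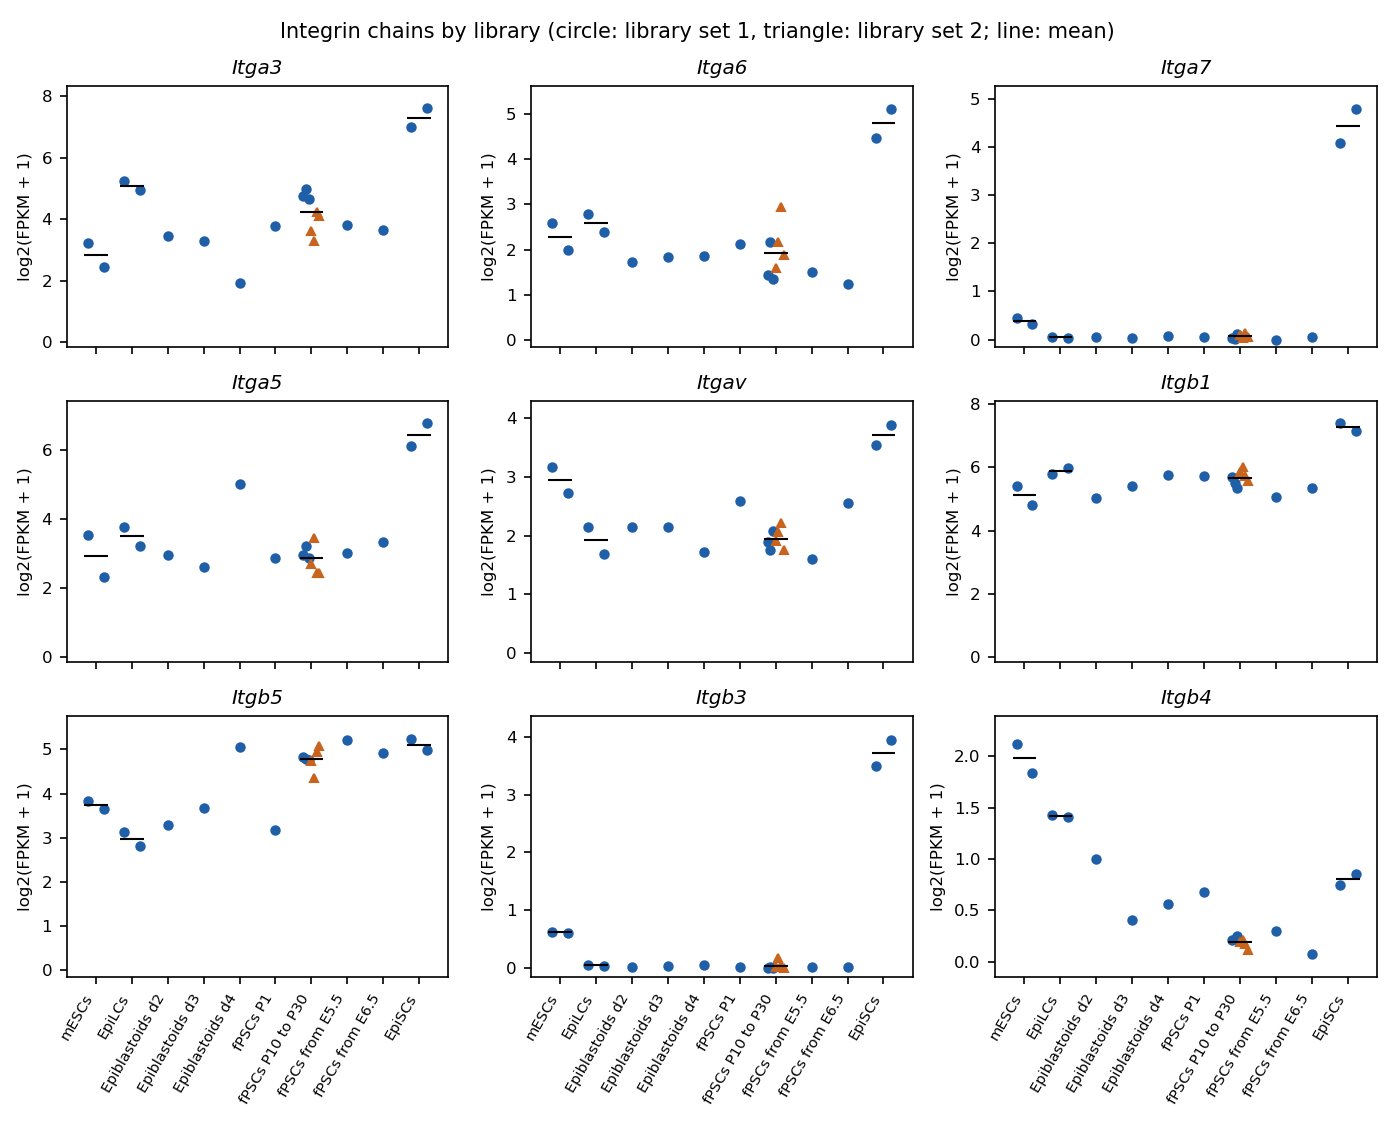
Levels of 9 integrin chains as log2(FPKM + 1) (y axis, scaled per gene) in 19 libraries by group (x axis); each point is 1 library (circles set 1, triangles set 2) and lines are means. EpiSCs are highest for Itga3, Itga6, Itga7, Itga5, Itgav, Itgb1 and Itgb3, whereas for Itgb5 the fPSC libraries (19.5 to 32.9 FPKM) overlap with EpiSCs (36.5 and 30.6).

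Other receptors and the intracellular adhesion complex were read in the same way. Of 7 tested other laminin receptors, which include dystroglycan and syndecans, 0 were called between fPSCs and EpiLCs, where 13.8% of all tested genes were. Against EpiSCs, 3 (Sdc4 by 2.04, Cd151 by 1.56 and Sdc2 by 1.27 on the log2 scale) were lower in fPSCs, where 19% of all tested genes were. Of 15 tested genes of the adhesion complex, which couples integrins to actin, 11 were lower and 0 higher in fPSCs than in EpiSCs. Over all tested genes 19% were lower and 13.3% higher. The falls were led by Parvb and Parva, which bind integrin-linked kinase (-3.51 and -3.26). The part of feeder cells in these differences from EpiSCs was not tested. Between fPSCs and EpiLCs 1 of the 15 was higher (Parva, 1.49) and 3 were lower, beside 5.66% and 8.15% of all tested genes. Those lower were led by Bcar1, a docking protein of focal adhesions (-1.04), and Fermt3, the kindlin of blood cells (-0.90). Between EpiLCs and mESCs 4 rose, led by Zyx and Bcar1 (4.13 and 2.26), and 2 fell, Parvb and Src (-1.84 and -1.17). Over all tested genes 12.2% rose and 17.4% fell.

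Epiblastoids and fPSCs at P1 have 1 library each, so their values carry no replicate check. Ratios of single libraries were taken on the FPKM + 1 scale, which understates the change of low genes. From day 2 to day 3, 0 of the 11 members at 1 FPKM or more in either library changed 2-fold on this scale, where 3.11% of genes rose and 2.47% fell that far. The low member Itgb4 went from 1.002 to 0.324 FPKM. From day 3 to day 4, 5 of 14 rose and 1 fell 2-fold, against 7.85% and 8.22% of genes. Of the 5, Lama1, Itga8 and Itga9 were under 1 FPKM on day 3 and entered only through day 4, so the filter favoured their rise. Only Itga5 and Itgb5 rose 2-fold from 1 FPKM or more on day 3. Itga5 went from 5.11 to 31.0 FPKM, Itgb5 from 11.8 to 32.2, Lama1 from 0.20 to 1.70, Itga8 from 0.04 to 1.30 and Itga9 from 0.17 to 1.42, while Itga3 went from 8.83 to 2.76. Fn1, the ligand of alpha5 beta1, stood at 7.71 on day 3 and 319 on day 4. The endoderm and mesoderm genes given above were also highest on day 4, and their part was not tested. Lama5, Lamb1 and Lamc1 were at 29.1, 26.6 and 21.1 FPKM on day 3 and at 22.04, 29.4 and 20.3 on day 4.

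Day 2 Epiblastoids, in Matrigel, differed 2-fold from the mean of the EpiLCs in 1 of 12 members on the FPKM + 1 scale, where 1.59% of genes were higher and 2.08% lower. That member was Itga3, at 9.96 against a mean of 33.2 FPKM, and Itga6, at 2.30 against 5.06, came under the limit on this scale alone. At P1, fPSCs differed 2-fold on that scale in 1 of 12 members, again Itga3 (12.7 FPKM), where 1.83% of genes were higher and 4.46% lower. Itgb5 was at 8.01 FPKM at P1, just above both EpiLC libraries and under all 7 libraries of later passages, which began at 19.5. Itgb4 was at 0.598 FPKM at P1, between EpiLCs (mean 1.68) and the later libraries, and Itgb7 was at 0.506 against a mean of 1.15 in EpiLCs. Both are over 2-fold apart in FPKM itself and not on the FPKM + 1 scale.

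The fPSCs derived from E5.5 and E6.5 epiblasts were set against the range of the 7 other fPSC libraries. In the E5.5 library 3 of the 17 tested members were above this range and 4 below it, where 11.8% and 22.9% of tested genes were. In the E6.5 library 2 were above and 4 below, where 12.3% and 25.7% were. Itgb5 was at 36.0 and 29.3 FPKM and so above or within the range of 19.5 to 32.9, Itgb1 was at 32.4 and 39.5, under its lower end of 39.8, and Lamb2 was at 2.38 and 2.36, under 2.65. Lama1, at 0.17 and 0.30 FPKM, and Lamc1, at 25.2 and 30.8, were within the range. The endoderm genes summed to 94.4 and 85.9 FPKM in these libraries, under 46C (185) and above the other 6 fPSC libraries (at most 54.1). The mesoderm genes summed to 65.3 and 70.9, above all 7 (at most 63.1), and the part of either list in these levels was not tested.

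Between the 2 sets of fPSC libraries 1 of 11 tested members was called, where 29.7% of all tested genes were (20.8% higher, 8.93% lower in set 2). Itga3 was at 26.2, 30.9 and 24.04 FPKM in set 1 (P10, P20, P30) and at 8.69, 17.9, 11.2 and 16.3 in 46C, BVSC, CMT and ROSAmTmG of set 2, without overlap. The difference was -0.99 ± 0.23 (limma adjusted p = 0.00893), where the median of all genes was 0.19. Line, passage and library set cannot be told apart, and CMT P11, the 1 library of set 2 that shares its line with set 1, came from cryopreserved cells by the study's description, so that set and freezing cannot be told apart there. The 2 epiblast-derived libraries of set 1 were at 13.2 and 11.5.

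Promoter marks in fPSCs at P10 were read from histone ChIP-seq, as RPKM in bins of 100 bp, and from bisulfite sequencing, as the methylated fraction in windows of 100 bp. H3K4me3 marks active and poised start sites, and H3K27me3, laid down by Polycomb, marks silent developmental genes. All 39 members have a start site in the NCBIM37 annotation, and 4 to 18 methylation windows lay within 1 kb of each. H3K27me3 was in the highest 10% of 22072 promoters for 9 members (Itga7, Lamc3, Itga11, Itgb4, Itgb3, Itga2, Itga8, Itga2b and Lama1), where 10% of promoters are by definition. The lowest of the 9 was Lama1 at 1.77 RPKM, with the limit at 1.58 and a median of 0.289 over all promoters. Itga7 was at 4.09, the 99.3rd percentile. These 9 genes had mean levels of 0.0017 to 0.169 FPKM in the 7 fPSC libraries. For H3K4me3, 0 of 39 members were in the highest 10% of promoters. Each mark comes from 1 file, which leaves no replicate spread, and the files do not say whether 1 or both replicates are in them.

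The methylated fraction was at 0.5 or above in 16 of 39 promoters and at 0.2 or below in 11, where 42.7% and 32.5% of all promoters were. The 16 include the leukocyte chains Itgad, Itgae, Itgal, Itgam, Itgax, Itgb2 and Itgb7 (0.829 to 0.958), and their highest level in fPSCs was that of Itgb7 at 0.975 FPKM. Of the 10 members at 2 FPKM or more in fPSCs, 8 were at 0.2 or below (Lama5, Lamb1, Lamc1, Itga3, Itga5, Itgav, Itgb1, Itgb5), and Itga6 and Lamb2 were at 0.434 and 0.459. The lowest fractions were those of Itga5 (0.0058) and Lamc1 (0.0069). Itgb3, at 0.107, had a promoter with little methylation and H3K27me3 of 2.29 RPKM, whereas Itgal, at 0.930, had 0.186 RPKM of H3K4me3. Coverage is not in the file, so the depth behind these fractions is unknown.

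**Figure D4:**
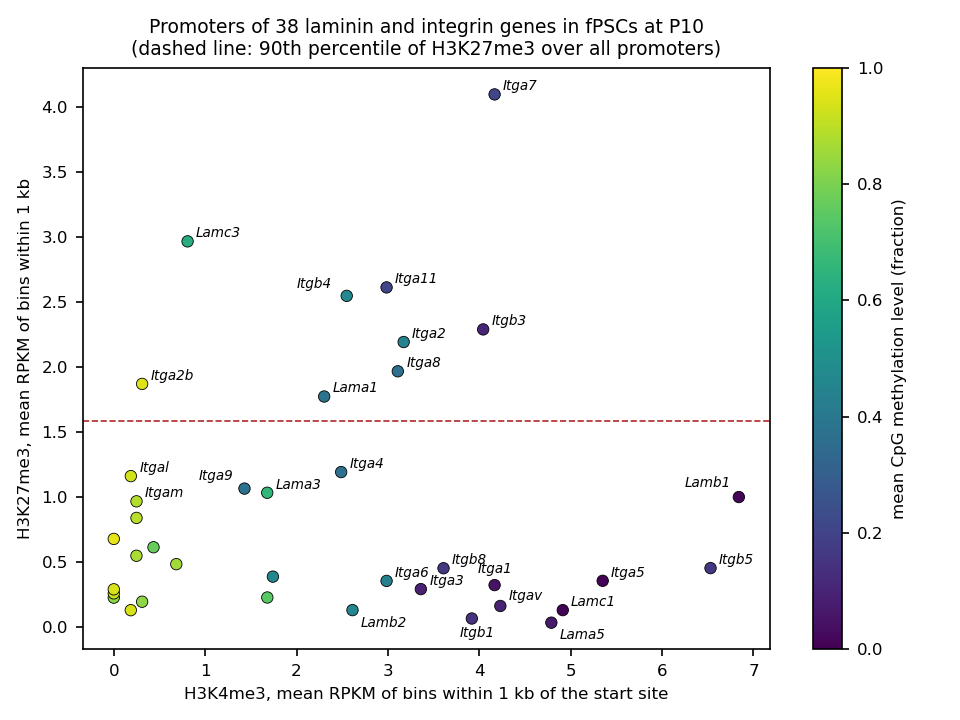
Each point is the promoter of 1 member in fPSCs at P10, by mean H3K4me3 (x axis) and mean H3K27me3 (y axis) in RPKM within 1 kb of the start site, coloured by methylated fraction. The 9 members above the dashed line at 1.58 RPKM include Itga7 (4.09), Itgb3 (2.29) and Lama1 (1.77), and Lama5, Lamc1 and Itgb5 lie at the lower right with low methylation.

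Upstream sequences are shown for 5 of these promoters because they span the 3 kinds of marks: Itga7, Itgb3 and Lama1 with high H3K27me3, Itga5 with the lowest methylation, and Itgal with high methylation. Each is the 200 bp before the annotated gene start, outside the gene, in NCBIM37 (mm9), read 5′ to 3′ on the strand of the gene, with CG dinucleotides in capitals. They lie at chr10:128370669-128370868 (Itga7, plus strand), chr11:104469170-104469369 (Itgb3, plus strand), chr17:68046405-68046604 (Lama1, plus strand), chr15:103197195-103197394 (Itga5, minus strand) and chr7:134439574-134439773 (Itgal, plus strand).
Itga7: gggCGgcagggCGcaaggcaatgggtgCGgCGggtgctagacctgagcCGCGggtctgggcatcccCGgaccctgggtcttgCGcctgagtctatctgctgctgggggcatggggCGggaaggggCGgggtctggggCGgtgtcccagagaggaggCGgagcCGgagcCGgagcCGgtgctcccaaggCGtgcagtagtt
Itgb3: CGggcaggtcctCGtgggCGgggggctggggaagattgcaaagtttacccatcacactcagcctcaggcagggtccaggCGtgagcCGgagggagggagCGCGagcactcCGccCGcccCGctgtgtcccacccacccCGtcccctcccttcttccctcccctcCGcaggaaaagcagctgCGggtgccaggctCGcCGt
Lama1: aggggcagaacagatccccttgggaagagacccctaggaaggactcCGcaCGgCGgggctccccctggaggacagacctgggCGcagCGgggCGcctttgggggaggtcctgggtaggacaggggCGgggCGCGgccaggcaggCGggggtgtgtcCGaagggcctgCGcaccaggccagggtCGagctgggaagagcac
Itga5: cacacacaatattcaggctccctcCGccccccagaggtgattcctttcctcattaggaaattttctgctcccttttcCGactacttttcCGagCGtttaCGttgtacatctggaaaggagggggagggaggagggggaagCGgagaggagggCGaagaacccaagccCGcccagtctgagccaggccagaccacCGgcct
Itgal: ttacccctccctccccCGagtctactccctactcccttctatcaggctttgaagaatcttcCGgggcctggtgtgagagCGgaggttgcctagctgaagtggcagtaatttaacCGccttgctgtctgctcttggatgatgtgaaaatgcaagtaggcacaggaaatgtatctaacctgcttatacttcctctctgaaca
The numbers of CG were 16 for Itga7, 15 for Itgb3, 13 for Lama1, 9 for Itga5 and 4 for Itgal, with a median of 7 over all promoters. Of all promoters, 42.6% hold at least 10. Itga7, with the most CG of the 5, also had the highest H3K27me3 of all 39 members, at 4.09 RPKM.

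Single fPSCs of 4 clones were sequenced with Smart-seq2, and detection of a member means at least 1 read count in a cell. Of 182 cells, 181 had at least 500 genes, with a median of 19078 to 33883 counts per cell in the 4 clones. Itgb1 was the only member detected in at least 50% of cells, in 123 of 181 (68.0%, exact 95% interval 60.6 to 74.7), and in 60.9% to 82.2% of cells of a clone. Lama5 was in 49.7% of cells (42.2 to 57.2), Itga6 in 40.9%, Lamb1 in 40.3% and Lamc1 in 39.8%, all with intervals that overlap that of Lama4 (36.5%, 29.5 to 43.9), which had 0.464 FPKM in bulk. Among the members named, only Itgb1 had an interval clear of that of Lama4, and overlap of intervals does not test a difference. With each cell drawn down to 5600 counts, 164 cells were left, and 0 members were in 50% of them. Itgb1 was then in 43.3%, Lama5 in 24.4%, Itga6 in 20.7%, Lamb1 in 20.1%, Lamc1 in 17.7% and Lama4 in 9.76%. Counts are not per length, and intervals cover counting error only.

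Detection did not follow the bulk level for all members. Lama4 overlaps no annotated gene. Itga11 and Lamc3, at 0.010 and 0.0065 FPKM, were still in 11.6% and 12.7% of cells. At full depth, Itga3 was in 16.6% of cells (95% interval 11.5 to 22.8), with 19.3 FPKM in bulk, and Itga5 in 11.05% (6.48 FPKM). Neither was above the level of Itga11 and Lamc3 beyond counting error, so these full-depth shares cannot be read as expression. With cells drawn down to equal counts as above, Itga3 was in 8.54% of 164 cells, Itga11 in 3.66%, Itga5 in 2.44% and Lamc3 in 0. These shares rest on 14, 6, 4 and 0 cells of a single random draw. In the same draw Lama4, at 0.464 FPKM in bulk, was in 9.76% of cells. Itga1, at 0.421 FPKM, was in 5.49%. The shares at equal depth thus did not follow the bulk level either, and their order was not tested. No intervals are given for the shares at equal depth. Itgb3, Itgal, Itgam, Itgad, Itga2, Itgb2 and Itgb2l have no row in either table of counts, so no share is given for them. Lama1 and Itga7 were in 1 cell each.

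**Figure D5:**
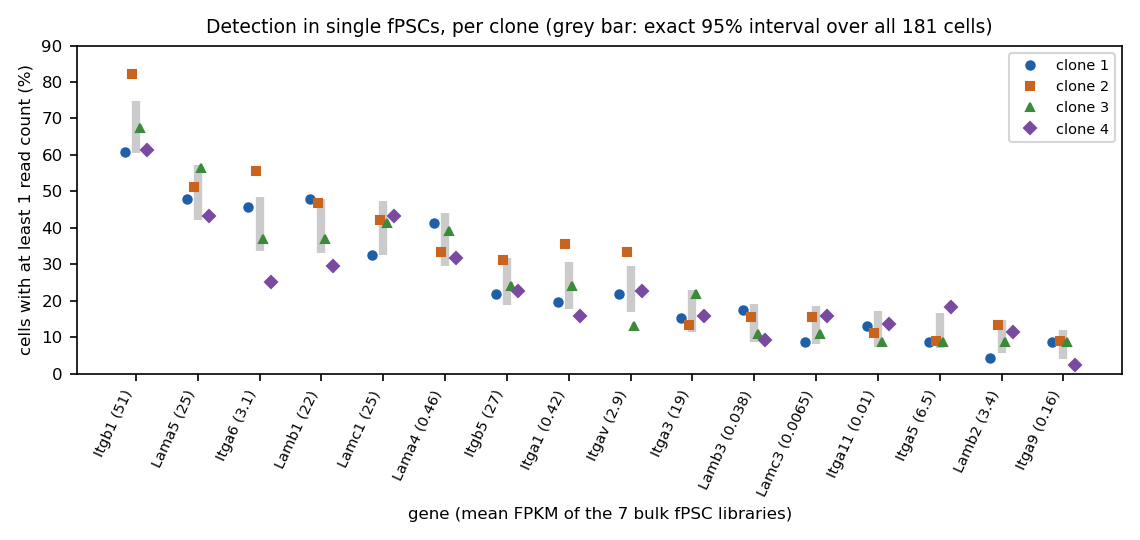
Percent of single fPSCs with at least 1 read count (y axis) for members in 5% or more of cells (x axis, with mean bulk FPKM in parentheses); symbols are the 4 clones and grey bars exact 95% intervals over 181 cells. Itgb1 is highest at 68.0%, and Lama4 lies beside Lamb1 and Lamc1 although its bulk level is 0.464 FPKM.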

How the data were processed

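Bulk RNA-seq gave the levels. Per the submitters' notes and the methods, reads went through cutadapt 1.11 and TopHat2 2.1.1 (mouse mm9), and the authors deposited FPKM from Cufflinks 2.1.1, which are scaled for library size and transcript length. No read counts of these libraries were used, and the most common ratio between low values put library depths between 0.933 and 2.60 times that of EpiLCs replicate 1. Of 23608 entries, 4 with repeated names were dropped. Log2(FPKM + 1) values were compared with limma 3.58.1 (R 4.3.3, trend, not robust) in 1 fit over 13 libraries. A pseudocount of 1 understates the change of low genes. The test took genes that reached 1 FPKM in 2 or more of these libraries, with p-values adjusted over all of them. The fit of the 2 library sets used the 7 fPSC libraries. The labels do not say that replicates are separate cultures, so p-values measure only the spread between libraries. The step was tested on simulated data.

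The authors deposited histone signal as RPKM in bins of 100 bp after alignment to mm9 with Bowtie2 2.2.2. Bins not listed counted as 0. The authors deposited methylation as a fraction per window of 100 bp, and means were taken within 1000 bp of the start site. Single cells were deposited as raw read counts. Clopper-Pearson intervals came from scipy 1.17.1.

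The rule for named genes allowed every member, printed all libraries for called members whose mean reached 10 FPKM in any group, and of other lists the 2 largest rises and falls per comparison. Genes outside it were named after their values were seen. Values of 1 member, the detection of another in single cells and 1 upstream sequence are not reported here. The members and lists were chosen with earlier results of these data known. Alternatives covered pseudocount, filter, scaling, samples, library sets, replicate numbers, promoter windows and cell depth.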

Additional observations from a re-analysis of the deposited data

Results flagged for a closer look

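Of the 17 tested members, 4 had a library that stood apart from the other 6 fPSC libraries by Dixon's criterion (0.568 for 7 samples), which chance alone flags in about 1 of 20 groups and which flagged 9.09% of all 12513 tested genes. Itga6 was highest in BVSC, at 6.64 FPKM, where the other 6 ran from 1.56 to 3.50. Lamc1 was highest in 46C at 30.8 FPKM, Lama1 in 46C at 0.417 and Itgb3 in 46C at 0.137. The library of 46C also had the highest sum of endoderm genes, 185 FPKM against 8.39 to 54.1 in the other 6. The part of this list in these levels was not tested. Lama1 and Itgb3 stayed under 1 FPKM in 46C as in the other libraries. Itga3 differed between the 2 library sets of fPSCs, by -0.99 on the log2 scale (limma, 4 against 3 libraries, lower in 4 of 4 libraries of set 2).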

How the results depend on the processing

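Of 67 called differences of single members, 54 kept their call under every alternative in which they could be tested, 13 lost it under at least 1, and 0 reversed. The count of members between EpiLCs and mESCs was 11 and fell to 7 without mESCs replicate 1, and the members in at least 50% of single cells went from 1 to 0 after thinning to 5600 counts. The other counts stayed within 1.5 times their value. Leaving out each library gave 7 to 9 members for EpiLCs against mESCs, 11 to 13 for EpiSCs against mESCs, 10 to 12 for fPSCs against mESCs, 2 for fPSCs against EpiLCs, 9 to 13 for fPSCs against EpiSCs, 11 to 14 for EpiSCs against EpiLCs and 1 between library sets. Without an EpiSC library, Itga7 and Itgb3 could not be tested. Over all genes, calls between fPSCs and EpiSCs went from 4041 to 1523 without EpiSCs replicate 2, and between fPSCs and EpiLCs from 1728 to 865 without EpiLCs replicate 1.

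Replicate numbers were not shown to pair libraries (correlation of deviations 0.204 for mESCs with EpiLCs, -0.199 for mESCs with EpiSCs and -0.134 for EpiLCs with EpiSCs). With the replicate number as a block over 6 libraries, 10, 13 and 14 members were called for EpiLCs against mESCs, EpiSCs against mESCs and EpiSCs against EpiLCs. With the pairing crossed, chosen after seeing the data, 15 and 14 were called for EpiSCs against mESCs and EpiLCs. Scaling to the upper quartile moved the median of all genes by at most 0.0955, and the share of higher calls between EpiLCs and mESCs from 41.1% to 49.8%. With fPSCs of set 1 alone the median against mESCs moved by -0.136. Promoters in the highest 10% of H3K27me3 numbered 9, and 6, 8 and 8 with 5 kb windows, any annotated start and the highest bin. FPKM and fractions without counts or coverage limit what depth can be given.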
